A study of Mus musculus with 35 samples.

Results

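The transcriptional response of bone marrow-derived macrophages (BMDMs) to damage-associated molecular patterns (DAMPs) was measured by RNA-seq against vehicle, in cells of 2 genotypes, wild-type and labelled AMPKα1-/-. Libraries were chosen by their titles and treatment labels alone, and no measured value entered the choice. They were 3 wild-type vehicle, 3 wild-type DAMPs, 3 vehicle labelled AMPKα1-/- and 3 DAMPs labelled AMPKα1-/- libraries, 12 of the 35 in the series. The mice were C57BL/6 by their labels, and bone marrow was grown into macrophages in medium with serum and L929-conditioned medium, a source of the macrophage growth factor M-CSF. After a night in serum-free macrophage medium, cells received DMSO (vehicle) or 1 µg/ml DAMPs for 24 h, and no library of these 4 groups received dexamethasone or lipopolysaccharide (LPS). What the DAMP preparation contained is not given in the sources used here. A further 5 libraries of cells given 100 ng/ml LPS for 24 h, 2 wild-type and 3 labelled AMPKα1-/-, served for a direct comparison. The deposited values are FPKM, fragments scaled to the length of the gene and to the depth of the library, and the depth read from them ran from 16805391 fragments in wild-type vehicle replicate 2 to 28722749 in labelled AMPKα1-/- DAMPs replicate 3. The labels do not name the animal behind each library, so p-values measure the spread between these libraries.

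DAMPs are molecules that dying or stressed cells release, such as nucleic acids, ATP and nuclear proteins. Macrophages sense them with receptors that partly overlap with those for microbes: Toll-like receptors, purinergic receptors for ATP, formyl peptide receptors for mitochondrial peptides and scavenger receptors. Downstream of these receptors lie NF-kB, which drives cytokine genes, the inflammasome, which matures IL-1β, and the interferon regulatory factors, which drive type I interferon and through it the interferon-stimulated genes. AMPKα1 is a catalytic subunit of AMP-activated protein kinase, the energy sensor of the cell, and is encoded by Prkaa1.

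The libraries were first checked against their labels. All 12 macrophage markers examined were expressed in every library, with Csf1r (the M-CSF receptor) between 504 and 675 FPKM and Adgre1 (F4/80) between 626 and 1621 FPKM. The summed level of the macrophage markers ran from 23568 to 42549 FPKM, most of it from Lyz2 (lysozyme). Several defining markers of other cells were at or near 0 in the 12 libraries. Retnlg of neutrophils was listed at 0 in all 12 and Ly6g in 11, Cd3e and Ncr1 of lymphocytes did not pass 0.0772 FPKM, and both Hba-a genes of red cells were listed at 0. Other genes of these marker lists were expressed in every library, with Pf4 between 137 and 461 FPKM, Itgax between 63.3 and 338, Csf3r between 47.8 and 95.6, Mmp9 between 5.99 and 53.5, Mmp8 between 4.73 and 33.9, and Cd4 between 6.58 and 34.9 FPKM. Batf3 (5.70 to 10.8 FPKM) and Eno3 (7.43 to 11.7 FPKM) were lower, and S100a9 reached 15.6 FPKM. Prkaa1 (ENSMUSG00000050697, GRCm38 chr15:5143861-5181899, plus strand) was at 15.9, 11.8 and 15.3 FPKM in wild-type vehicle and at 14.8, 16.5 and 15.4 FPKM in vehicle labelled AMPKα1-/-. With DAMPs it was at 17.9, 12.4 and 11.03 FPKM in wild-type and at 10.7, 15.8 and 16.4 FPKM in libraries labelled AMPKα1-/-. The genotypes overlapped, so the summed level of the gene did not show a loss. An FPKM over the whole gene cannot show a deleted exon, and the genotype is therefore given as labelled throughout.

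The libraries differed, apart from their groups, in genes of the major histocompatibility region of chromosome 17. H2-Ea-ps, the class II α chain that is not transcribed in mice of the H2-b haplotype, which C57BL/6 mice carry, was listed at 0 in wild-type DAMPs replicate 1 and in labelled AMPKα1-/- vehicle replicate 3, and lay between 112 and 880 FPKM in the other 10 libraries. These 2 libraries were more than 4 times lower than each of the other 10 in 9 genes tested, 5 of them on chromosome 17, and more than 4 times higher in none. By this gene the 10 libraries with transcript, not the 2 at 0, go against the strain label. Whether the background of the mice or the labels of some libraries differ from what is stated was not tested. Most other libraries in the series of the same number and genotype as these 2 did not pass 0.0914 FPKM in H2-Ea-ps. Libraries with dexamethasone or LPS did not pass 43 FPKM in any group. Wild-type vehicle replicate 1 (151 FPKM) and labelled AMPKα1-/- DAMPs replicate 3 (434 FPKM) differed from their number, and no count was repeated without that second pair together. The pair at 0 holds a DAMPs and a vehicle library of different genotypes and is called below the 2 libraries that stood apart. For DAMPs against vehicle, the counts of called genes and of list members were repeated without both. The counts of genes over 2-fold, without overlap, or with an unadjusted p in both genotypes, the level term of genotype and the comparison with LPS were not.

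DAMPs against vehicle was fitted in limma on log2(FPKM + 1), with genotype as a term, for the 11249 genes with a mean of at least 1 FPKM over the 12 libraries. At an adjusted p under 0.05 (Benjamini-Hochberg), 988 genes were called, 8.78% of those tested. Of these 412 rose (3.66%) and 576 fell (5.12%), and without the 2 libraries named above 592 were called, 289 of them higher and 303 lower. The excess of falls turned with the scaling: 444 genes rose and 429 fell when libraries were centred on 1 median, and 481 rose and 453 fell after quantile normalization. Most changes were small. The median change of the called genes was 0.66 (log2) upwards and 0.52 downwards, and only 118 rose (1.05%) and 78 fell (0.693%) by more than 2-fold on the FPKM + 1 scale. The median of all genes tested lay at -0.055 (log2). In 805 genes (7.16%) the 3 DAMPs libraries lay on the same side of the 3 vehicle libraries in both genotypes, 333 higher (2.96%) and 472 lower (4.2%), and in 1 gene (0.00889%) the genotypes lay on opposite sides.

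Several of the genes with the largest rises are known for their response to interferon or for recognition of microbes. Ly6a (Sca-1, ENSMUSG00000075602, GRCm38 chr15:74994877-74998031, minus strand), an interferon-inducible surface protein, was at 4.09, 4.33 and 4.98 FPKM in wild-type vehicle and at 43.1, 23.0 and 228 FPKM in wild-type DAMPs. With the label AMPKα1-/- it was at 11.2, 12.9 and 1.45 FPKM with vehicle and at 170, 223 and 158 FPKM with DAMPs. The groups did not overlap in either genotype, and the change was 4.07 ± 0.53 (log2, SE, n = 12; limma, adjusted p = 0.00119). Irf7 (ENSMUSG00000025498, chr7:141262706-141266481, minus strand), the regulator that amplifies type I interferon, was at 66.7, 115 and 87.1 FPKM in wild-type vehicle and at 478, 368 and 1586 FPKM in wild-type DAMPs. Libraries labelled AMPKα1-/- had Irf7 at 91.5, 98.6 and 26.7 FPKM with vehicle and at 752, 933 and 891 FPKM with DAMPs. Irf7 rose by 3.32 ± 0.39 (log2, SE; limma, adjusted p = 8.2e-04), and wild-type DAMPs replicate 3 was the highest library for both genes, whereas wild-type DAMPs replicate 2 was the lowest with DAMPs.

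Marco (ENSMUSG00000026390, chr1:120474538-120505024, minus strand), a scavenger receptor for bacteria and particles, had the smallest p of the called genes in both genotypes together. It was at 21.7, 29.4 and 16.9 FPKM in wild-type vehicle and at 127, 155 and 206 FPKM in wild-type DAMPs. Labelled AMPKα1-/- libraries were at 44.3, 35.01 and 19.8 FPKM with vehicle and at 244, 191 and 223 FPKM with DAMPs. The lowest DAMPs library thus lay well above the highest vehicle library of either genotype, and Marco rose by 2.78 ± 0.19 (log2, SE; limma, adjusted p = 2.6e-05). The other large rises were Ms4a4c (2.77), Ly6i (2.75), Slfn1 (2.73), Ifit3 (2.70), the chemokine gene Ccl5 (2.69), the chaperone Rtp4 (2.64) and the protease inhibitor Slpi (2.60, all log2). Ly6i averaged 0.752 FPKM with vehicle and 13.45 FPKM with DAMPs. It passed the required mean of 1 FPKM through the DAMPs libraries alone, so its change is a description and no test. Ly6a and Ly6i belong to a family of close paralogs, and so do Slfn1 and the Ifit genes, so their FPKM may share fragments.

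**Figure D1:**
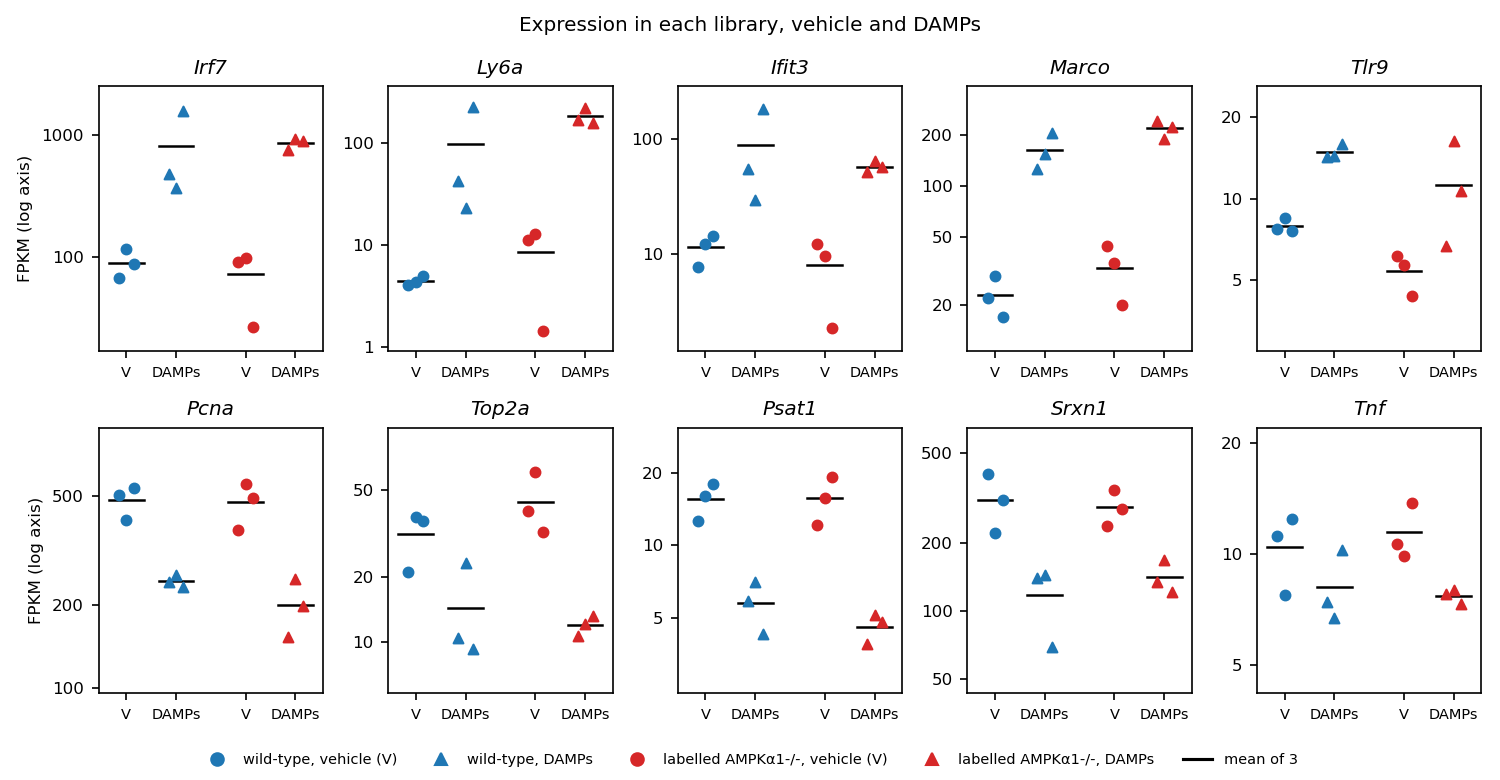
Expression of 10 genes (FPKM, log axis) in each of the 12 libraries, by genotype and treatment. Points are libraries and lines are means of 3. Irf7, Ly6a, Ifit3 and Marco lay higher with DAMPs without overlap in both genotypes, Pcna, Psat1 and Srxn1 lay lower without overlap, and the Tnf libraries overlapped in wild-type.

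Interferon-stimulated genes rose together. Of 38 members tested, 36 were called higher and none lower, with a median change of 1.70 (log2), beside 3.66% called higher and a median of -0.055 over all genes. Without the 2 libraries that stood apart, 33 were higher, and leaving out any single library left 34 to 38. The transcription factors Stat2 and Irf9 changed by 0.96 and 0.74 (log2). Among antiviral effectors Ifit3b changed by 2.35, Oasl2 by 2.36, Isg15 (the ubiquitin-like modifier) by 2.17, and Bst2 (tetherin) by 2.07. The guanylate-binding and immunity-related GTPases Gbp2, Irgm1 and Igtp changed by 1.37, 1.25 and 0.98. Gbp5 and Gbp7 were not called (0.70 and 0.52, adjusted p = 0.0635 and 0.179, limma). Names in this list beyond Irf7, Bst2, Ifit3b, Ifit3 and Rtp4 were chosen after their values were seen. Bst2 was at 269, 315 and 269 FPKM in wild-type vehicle and at 734, 635 and 2407 FPKM with DAMPs. With the label AMPKα1-/- it went from 291, 250 and 158 FPKM to 1083, 1075 and 1127 FPKM. The 6 DAMPs libraries lay above the 6 vehicle libraries, with the widest spread in wild-type DAMPs. The gene of interferon β itself, Ifnb1, was listed at 0 in 10 of the 12 libraries and did not pass 0.0739 FPKM in the others. With LPS, Ifnb1 was also low at 24 h, between 0 and 1.07 FPKM, and earlier times were not tested.

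The promoters of these genes were searched for letters that interferon-activated factors are known to bind. The motif was GAAA, any 2 bases and GAAA again, on either strand, in the 250 bases before the start in the RefSeq promoter table (build GRCm38.p6). It was present in 16 of the 29 tested interferon-stimulated genes that had a promoter in the table (55.2%), in 17.7% of the 333 genes called higher that had one, in 2.4% of the 459 called lower, in 3.45% of the genes tested, and in 2.98% of all 32851 promoters. A match describes the sequence and is not shown to be a site. The stretches below are those of the most raised members with a match, written 5′ to 3′ on the strand of the gene, with matches in capitals.
Ifit3 (chr19:34583348-34583441, plus strand): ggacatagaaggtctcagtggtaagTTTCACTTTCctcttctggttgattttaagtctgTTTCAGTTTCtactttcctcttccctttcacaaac
Ifit1 (chr19:34640760-34640838, plus strand): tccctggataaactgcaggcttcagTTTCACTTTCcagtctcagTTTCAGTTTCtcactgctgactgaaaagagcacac
Isg15 (chr4:156200850-156200921, minus strand): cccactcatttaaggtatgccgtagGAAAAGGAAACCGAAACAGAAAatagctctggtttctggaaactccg
Oas3 (chr5:120777700-120777759, minus strand): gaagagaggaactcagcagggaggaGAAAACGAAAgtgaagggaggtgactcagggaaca
Bst2 (chr8:71537562-71537627, minus strand): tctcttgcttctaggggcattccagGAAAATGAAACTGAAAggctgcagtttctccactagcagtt
Ifit3b carries the same 94 letters as Ifit3 at chr19:34607744-34607837, and FPKM of the Ifit3 copies may share fragments. Ifit3 and Ifit1 hold 2 matches each on the opposite strand. In Isg15 and Bst2 overlapping matches run into each other. Irf7 was not among the 16 members with a match, and members without a promoter in the table could not be.

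Of 36 genes for sensing danger, receptors and adaptors, 6 rose and 3 fell, with a median of 0.09 (log2), beside 3.66% called higher and 5.12% called lower over all genes. Without the 2 libraries that stood apart 5 rose and 2 fell. The formyl peptide receptors rose most, Fpr1 by 1.51 ± 0.21 and Fpr2 by 1.51 ± 0.21 (log2, SE). Fpr2 was at 7.66, 9.50 and 8.10 FPKM in wild-type vehicle and at 19.0, 18.6 and 36.2 FPKM with DAMPs, and at 13.9, 15.5 and 6.07 against 36.3, 36.0 and 38.1 FPKM in libraries labelled AMPKα1-/-. Tlr9, the receptor for CpG DNA, was at 7.72, 8.50 and 7.62 FPKM in wild-type vehicle and at 14.3, 14.4 and 15.9 FPKM with DAMPs. In libraries labelled AMPKα1-/- it was at 6.14, 5.70 and 4.37 against 6.66, 16.3 and 10.6 FPKM, a rise of 0.84 ± 0.16 in both genotypes together (limma, adjusted p = 0.00613). The ATP-gated channel P2rx4 rose by 0.41 ± 0.05 (limma, adjusted p = 0.00133). It was between 239 and 284 FPKM in the vehicle libraries and between 304 and 387 FPKM in the DAMPs libraries, without overlap. The LPS receptor Tlr4 (0.05, adjusted p = 0.919) and its partner Cd14 (0.36, adjusted p = 0.196) were not called. Tlr9, Tlr4 and Cd14 were named after their values were seen.

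Of 25 inflammatory cytokine and chemokine genes tested, 3 rose and none fell, beside 3.66% and 5.12% over all genes, and 16 more lay under a mean of 1 FPKM and were not tested. Those that rose were Ccl5, Acod1 (the itaconate-forming enzyme, kept in this list as an inflammatory gene) and the scavenger chemokine Cxcl16. Tnf was at 11.2, 7.75 and 12.5 FPKM in wild-type vehicle and at 7.44, 6.71 and 10.3 FPKM with DAMPs, and at 10.7, 9.93 and 13.8 against 7.82, 7.99 and 7.32 FPKM in libraries labelled AMPKα1-/-. Its difference was -0.42 ± 0.13 (log2, SE; limma, adjusted p = 0.0669). Il1b differed by 0.61 ± 0.45 (limma, adjusted p = 0.491), with labelled AMPKα1-/- DAMPs replicate 3 at 34.6 FPKM against 2.04 to 13.03 FPKM in the other 11 libraries. Il6 did not pass 0.268 FPKM in any of the 12 libraries and was not tested. Acod1 rose by 1.63 ± 0.30 (limma, adjusted p = 0.00563), from between 0.887 and 4.10 FPKM to between 2.64 and 11.4 FPKM. Of 22 NF-kB subunits and inhibitors, 4 rose (Ikbke 0.57, Traf1 0.57, Nfkbiz 0.46 and Tnip1 0.40) and none fell, and without the 2 libraries that stood apart 2 rose and 1 fell. Of 17 inflammasome and pyroptosis genes, 5 rose and 2 fell. The rises were 2 without the 2 libraries that stood apart, and 3 without labelled AMPKα1-/- vehicle replicate 1, 2 or 3, DAMPs replicate 2 or 3 of that label, or wild-type vehicle replicate 3. Gsdmd, the pore former of pyroptosis, rose by 0.56 ± 0.10, while Panx1, a channel for ATP release, fell by 0.84 and Txnip fell by 0.52 on the log2 scale. Il18bp, the antagonist of IL-18, had the largest change of this list (1.46, named after its values were seen).

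Among the 24 pathway lists, that of proliferation held the most genes called lower. Of 30 proliferation genes, 27 fell and none rose, with a median of -1.03 (log2), beside 5.12% called lower over all genes. Leaving out any single library left 23 to 27, and 19 were called without the 2 libraries that stood apart. Pcna, the sliding clamp of DNA replication, was at 502, 408 and 531 FPKM in wild-type vehicle and at 244, 257 and 233 FPKM with DAMPs. In libraries labelled AMPKα1-/- it was at 376, 549 and 491 FPKM against 153, 250 and 198 FPKM, and the difference was -1.10 ± 0.13 (log2, SE; limma, adjusted p = 8.2e-04). Top2a, the topoisomerase of dividing cells, was at 21.0, 37.7 and 36.3 FPKM in wild-type vehicle against 10.4, 23.2 and 9.28 FPKM with DAMPs. With the label AMPKα1-/- Top2a was at 40.1, 60.7 and 32.1 against 10.7, 12.1 and 13.2 FPKM, and only in wild-type did the libraries of the 2 treatments overlap. Ccna2 (cyclin A2) fell by 1.49, Cenpa (the centromeric histone) by 1.13 and Knstrn (kinetochore) by 1.18 on the log2 scale. The S-phase regulator E2f1 differed by -0.10 (adjusted p = 0.529). In bulk RNA, fewer cycling cells and less transcript per cell cannot be told apart.

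The motifs TTTGGCGC and TTTCGCGC, known for E2F factors, were searched in the same way. They were present in 3 of the 25 proliferation genes with a promoter in the table (12%), in 3.7% of the genes called lower, in 1.56% of the genes tested and in 0.654% of all promoters, and these 3 are shown with matches in capitals.
Mcm5 (chr8:75109331-75109392, plus strand): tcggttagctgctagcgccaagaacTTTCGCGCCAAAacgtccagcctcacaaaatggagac
Mcm6 (chr1:128359779-128359840, minus strand): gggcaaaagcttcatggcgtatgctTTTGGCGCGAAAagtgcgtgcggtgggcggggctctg
Cdk1 (chr10:69353011-69353068, minus strand): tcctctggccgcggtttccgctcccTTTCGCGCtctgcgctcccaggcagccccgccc
In Mcm5 and Mcm6 a match on each strand overlaps the other. The helicase genes Mcm5 and Mcm6 changed by -1.03 and -1.02 and the mitotic kinase gene Cdk1 by -0.67 (log2). The 5 letters CCAAT, on either strand, were present in 21 of these 25 genes (84%), in 49.7% of the genes called lower, in 40.6% of the genes tested and in 33.8% of all promoters.

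Genes of the antioxidant programme of the transcription factor NRF2 fell as well. Of 22 tested, 14 fell and none rose, with a median of -0.49 (log2), beside 5.12% called lower and a median of -0.055 over all genes, and without the 2 libraries that stood apart 10 fell. Srxn1 (sulfiredoxin, which repairs peroxiredoxins) was at 401, 222 and 309 FPKM in wild-type vehicle and at 140, 145 and 69.4 FPKM with DAMPs. In libraries labelled AMPKα1-/- it was at 238, 343 and 281 against 134, 168 and 121 FPKM. No library overlapped, and the change was -1.22 ± 0.20 (log2, SE; limma, adjusted p = 0.00347). Txnrd1 (thioredoxin reductase) fell by 1.15, Hmox1 (heme oxygenase) by 1.04, and Gclc (the first enzyme of glutathione synthesis) by 0.96 on the log2 scale. Nfe2l2, which encodes NRF2, changed by -0.27. The letters TGACNNNGC, known from antioxidant-response elements, were present in 6 of the 19 of these genes with a promoter (31.6%), in 18.5% of the genes called lower, in 14% of the genes tested and in 10.2% of all promoters.

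Single genes of amino acid and lipid handling were among the largest falls. Psat1 (ENSMUSG00000024640, chr19:15904678-15947337, minus strand), of serine synthesis, was at 12.6, 16.04 and 17.9 FPKM in wild-type vehicle and at 5.89, 7.06 and 4.29 FPKM with DAMPs. In libraries labelled AMPKα1-/- it was at 12.2, 15.7 and 19.2 against 3.87, 5.12 and 4.78 FPKM, without overlap, and the change was -1.43 ± 0.14 (log2, SE; limma, adjusted p = 2.9e-04). Asns (asparagine synthetase) fell by 1.06 and Atf4, the factor of the amino acid and stress response, by 0.40 on the log2 scale, 2 of the 4 genes of 23 in the heat shock and unfolded protein response list that fell. None of that list rose, beside 5.12% called lower and 3.66% called higher over all genes, and without the 2 libraries that stood apart 2 fell. With all 35 libraries fitted 7 of the list fell. With a replicate block by genotype and number 7 fell and 1 rose. The fatty acid transporter Cd36 fell by 1.30, lipoprotein lipase Lpl by 1.03 and the transglutaminase subunit F13a1 by 1.33. Further large falls were Tox2 (1.38), Angptl2 (1.17) and Mir23b (1.36), a short hairpin gene whose FPKM is uncertain. Tox2 averaged 3.38 FPKM with vehicle and 0.748 FPKM with DAMPs. It passed the required mean of 1 FPKM through the vehicle libraries alone, so its change is a description and no test.

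Markers of alternative activation and repair fell in 6 of 17 genes and rose in none, beside 5.12% called lower over all genes. Without the 2 libraries that stood apart 3 fell and 1 rose, and with all 35 libraries fitted 2 fell. The falls were 3 without labelled AMPKα1-/- vehicle replicate 3 alone, and 4, with 1 rise, without wild-type DAMPs replicate 1 alone, and 1 also rose without wild-type vehicle replicate 2. The 6 include the mannose receptor Mrc1 (-0.80 ± 0.12), the lipid receptor Trem2 (-0.54 ± 0.11) and Igf1 (-0.49 ± 0.10, log2, SE). Of 11 scavenger receptors 2 rose (Marco and Cxcl16) and 3 fell (Cd36, Mrc1 and Cd163). For this list and the next, the share of rises among all genes tested was 3.66%. In apoptotic cell clearance, Cd300lf rose by 1.12 and Cd300lb fell by 0.53 on the log2 scale, within a list in which 2 of 21 rose and 2 fell, and 1 rose and 2 fell without the 2 libraries that stood apart. The rises were also 1 when any single library was left out other than labelled AMPKα1-/- DAMPs replicate 1, wild-type DAMPs replicate 2 or wild-type vehicle replicate 1, and the falls were 3 without wild-type DAMPs replicate 1 and 4 without wild-type DAMPs replicate 2. Of 21 immediate early genes, 5 fell and none rose, among them Dusp6 (-0.79 ± 0.09), a phosphatase that limits ERK signalling, and Myc (-0.98 ± 0.13). Dusp6 lay between 12.3 and 14.9 FPKM in the vehicle libraries and between 6.32 and 9.59 FPKM in the DAMPs libraries, without overlap.

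Of 22 genes of sterol synthesis, 6 rose and none fell, with a median of 0.34 (log2), beside 3.66% called higher over all genes. The count was 5 without the 2 libraries that stood apart, 4 to 8 without any single library, and 4 to 10 under other settings. The mevalonate enzyme Mvd rose by 0.90 ± 0.17 and the controlling factor Srebf2 by 0.60 ± 0.12 (log2, SE). The letters CCAAT were present in each of the 16 promoters of this list in the table. Of 15 genes of cholesterol efflux and LXR targets, 1 rose (Nr1h3, the LXRα receptor, 0.50) and 3 fell, beside 3.66% called higher and 5.12% called lower over all genes. Only 1 fell without the 2 libraries that stood apart. The falls were also 1 without labelled AMPKα1-/- DAMPs replicate 1 or vehicle replicate 3, or wild-type DAMPs replicate 3 or vehicle replicate 1 or 2, alone. They were 1 as well without the filter on low values, without the genotype term and with array weights. With a replicate block by genotype and number 5 fell. The list of class II antigen presentation had 2 of 13 higher (Ctss and Cd80) and none lower, and 1 higher without the 2 libraries that stood apart. It was also 1 without any single labelled AMPKα1-/- vehicle library, labelled AMPKα1-/- DAMPs replicate 3, wild-type DAMPs replicate 1 or 3, or wild-type vehicle replicate 2 or 3, and 0 without the filter on low values or the genotype term.

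In glycolysis, 2 of 24 genes rose and 7 fell with a median of -0.18, beside 3.66% called higher and 5.12% called lower over all genes. The falls were 4 without the 2 libraries that stood apart, and 4 without labelled AMPKα1-/- vehicle replicate 2 or 3 or wild-type vehicle replicate 3 alone. They were also 4 without the filter on low values, and 10 after quantile normalization. The rises were 0 without the filter on low values, the genotype term or moderation. Leaving out a single library, such as labelled AMPKα1-/- vehicle replicate 2 or 3, took the rises as low as 1. In this list the kinase Pgk1 changed by -0.42 ± 0.07 and the glucose transporter Slc2a1 by -0.58 ± 0.11 (log2, SE). Of 20 HIF1 targets, 6 fell (4 without the 2 libraries that stood apart) and none rose, and Hif1a itself differed by -0.01 ± 0.14 (limma, not called). Of 21 genes of the TCA cycle, 2 rose (Sdhb and Acod1) and 1 fell (Idh3a), with Suclg1 at -0.04 and Sdhd at 0.18 (adjusted p = 0.841 and 0.123, limma). The respiratory chain had 2 of 71 nuclear genes higher (Cox5a and Ndufc2) and 1 of 12 mitochondrially encoded genes higher (mt-Nd3), with none lower in either list. Neither Idh3a nor mt-Nd3 was left as a call of its list without the 2 libraries that stood apart or without the filter on low values. No mitochondrially encoded gene was called when any single library other than wild-type DAMPs replicate 3 was left out (2 were called without that one). No TCA gene fell without any 1 of the labelled AMPKα1-/- DAMPs libraries, labelled AMPKα1-/- vehicle replicate 2 or 3, wild-type DAMPs replicate 3, or wild-type vehicle replicate 1 or 3. None of 74 cytosolic ribosome genes was called at an adjusted p under 0.05, and 1 was lower at an unadjusted p under 0.05. Of 32 lysosome genes 2 rose (none without the filter on low values) and 1 fell, the acid lipase Lipa (-0.65 ± 0.11). Among 15 glucocorticoid-induced genes Sgk1 rose and Cd163 and Fkbp5 fell (1 rose and 1 fell without the 2 libraries that stood apart), while Tsc22d3 (0.25, adjusted p = 0.075) and Dusp1 (-0.21, adjusted p = 0.393) were not called. In this list 1 fell without labelled AMPKα1-/- DAMPs replicate 2 or 3, labelled AMPKα1-/- vehicle replicate 2 or 3, wild-type DAMPs replicate 3 or wild-type vehicle replicate 3 alone, 2 rose without wild-type DAMPs replicate 2 or vehicle replicate 2, and none was called without the filter on low values. Of 7 genes of AMPK subunits and upstream kinases, 1 rose, Camkk2 (0.43 ± 0.08).

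**Figure D2:**
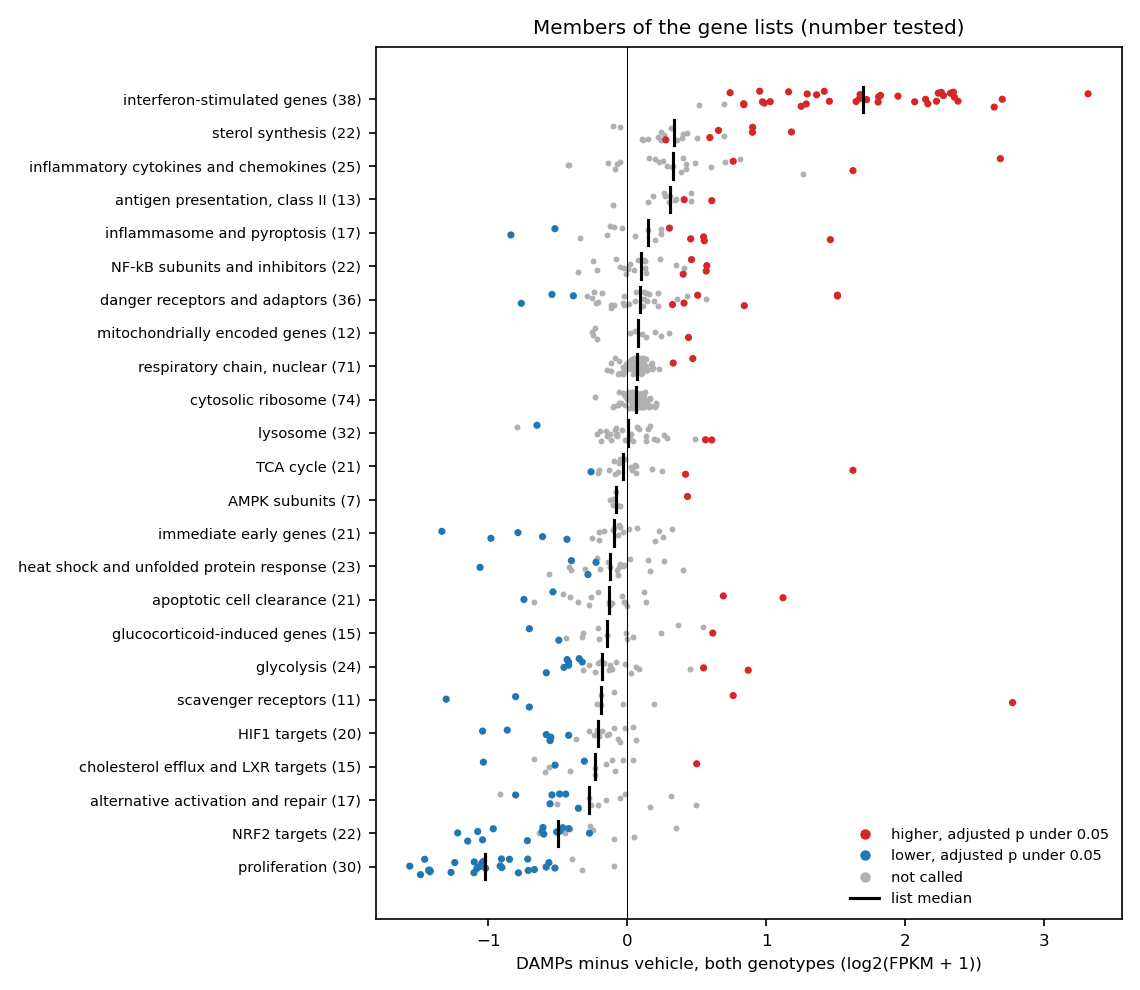
Change with DAMPs (log2(FPKM + 1), both genotypes) of every tested member of the 24 pathway lists, with the number tested in brackets. Red and blue points passed an adjusted p of 0.05 and black bars are list medians. Interferon-stimulated genes lie to the right (median 1.70), proliferation genes (-1.03) and NRF2 targets (-0.49) to the left, and ribosomal and respiratory chain genes close to 0.

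The markers of cell identity were read beside these changes, and their part in the results was not tested. Of 12 macrophage markers, Fcgr1 (the high-affinity IgG receptor) rose by 0.83 and Mrc1 fell by 0.80 on the log2 scale. For this and the other marker lists, the shares over all genes were 3.66% called higher and 5.12% called lower. No marker of this list was called higher without labelled AMPKα1-/- DAMPs replicate 2 or 3, labelled AMPKα1-/- vehicle replicate 1 or 3, or wild-type vehicle replicate 1 or 3, each left out alone, nor without the filter on low values or without moderation. The summed level of the 15 neutrophil markers lay between 81.3 and 171 FPKM with vehicle and between 108 and 158 FPKM with DAMPs, mostly from Csf3r and Mmp9. Csf3r rose by 0.38 ± 0.11, and no neutrophil marker was called without the 2 libraries that stood apart. The call was also lost when any single library was left out other than labelled AMPKα1-/- vehicle replicate 3, wild-type DAMPs replicate 2 or wild-type vehicle replicate 1, and without the filter on low values, the genotype term or moderation. Cd4, which macrophages also express, was the 1 lymphocyte marker that rose (0.84 ± 0.14), with Cd3e and Cd3d at or near 0, and the summed level of that list ran from 7.59 to 19.7 FPKM with vehicle and from 17.9 to 37.4 FPKM with DAMPs. Only 2 of 12 genes of the red cell and megakaryocyte list, 2 of 10 dendritic cell markers, 4 of 12 fibroblast markers and 3 of 18 skeletal muscle markers passed the filter, and none was called. No mast cell marker passed it, and the most abundant, Cpa3, averaged 0.438 FPKM.

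The 2 genotypes were then set side by side. Within wild-type 17 genes were called (0.151%), 10 higher (0.0889%) and 7 lower (0.0622%), and within libraries labelled AMPKα1-/- 200 genes (1.78%), 91 higher (0.809%) and 109 lower (0.969%). In the latter the share of higher genes was 45.5%, and it became 61.3% when libraries were centred on a single median and 59.6% after quantile normalization. All 17 wild-type calls, among them Marco, Psat1, Dusp6, Asns and Hmox1, were also called in the libraries labelled AMPKα1-/-. Both contrasts took their spread from the 4 groups together, so the calls in the 2 genotypes are not independent of each other. With the 6 wild-type libraries fitted alone, 1 gene was called. All 200 of the latter had the same sign in wild-type. So did 97.2% of the 1598 genes with an unadjusted p under 0.05 (limma) in libraries labelled AMPKα1-/-. Of the 200, 186 had an unadjusted p under 0.05 in wild-type, beside 9.93% of all genes. These counts lean on single libraries. Without wild-type DAMPs replicate 2 the wild-type count was 156, and without any other single wild-type library it was 1 to 4. It was also 4 without labelled AMPKα1-/- DAMPs replicate 3, 5 without vehicle replicate 2 and 26 without vehicle replicate 3 of that label. The count in libraries labelled AMPKα1-/- was 10 to 27 without any single library of that label. It was 54 without wild-type vehicle replicate 3, 323 without wild-type DAMPs replicate 2 and 374 without wild-type DAMPs replicate 3. Without the 2 libraries that stood apart the counts were 7 and 3.

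The difference between the genotypes was tested as an interaction. No gene had an adjusted p under 0.05, and 77 of 11249 genes (0.685%) had an unadjusted p under 0.05. That share lay below the 0.05 that the threshold allows without any difference, so the empty result does not show equal responses. The median half-width of the 95% confidence interval of the difference was 0.477 (log2). The log2 changes of the genotypes had a correlation of 0.782 (Pearson) and 0.642 (Spearman) over the 11249 genes, which are not independent replicates, and 74.0% of genes had the same sign. Without wild-type DAMPs replicate 3 the Pearson correlation was 0.606. In 795 genes both genotypes had an unadjusted p under 0.05 with the same sign, and in 0 genes with opposite signs. Irf7 changed by 2.88 in wild-type and by 3.75 in libraries labelled AMPKα1-/-, a difference of 0.87 with a 95% interval from -0.80 to 2.54 (limma). For Marco the changes were 2.79 and 2.76, and for Psat1 -1.30 and -1.56 (log2). List medians, wild-type first, were 1.52 and 1.88 for interferon-stimulated genes, -0.59 and -0.45 for NRF2 targets, and -0.74 and -1.22 for proliferation. They were 0.47 and 0.20 for sterol synthesis, and -0.065 and 0.205, of opposite sign, for the cytosolic ribosome. The differences between these medians were not tested. For the 100 genes with the smallest p in the other genotype, each DAMPs library moved in the same direction in 98 to 100 genes. The median of these changes was 0.96, 0.61 and 1.19 in wild-type DAMPs replicates 1 to 3, and 0.91, 0.79 and 1.00 over another 100 genes in those labelled AMPKα1-/- (log2). Over all genes the median size of the change in each library lay between 0.133 and 0.273 (log2). The level term of genotype, in the main fit of genotype and treatment, called 275 genes (2.44%) between libraries labelled AMPKα1-/- and wild-type.

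**Figure D3:**
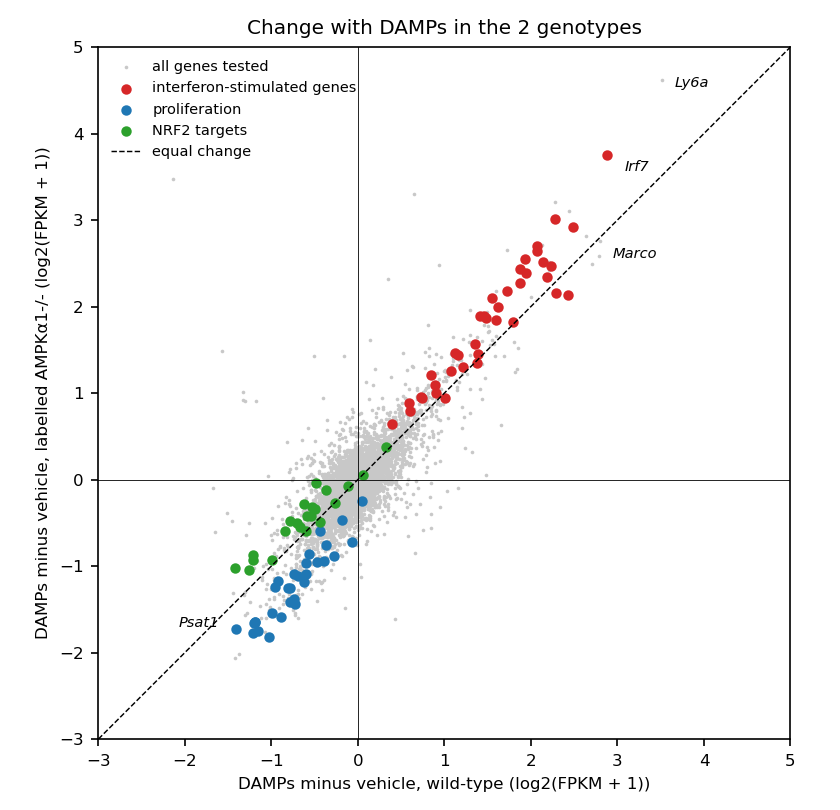
Change with DAMPs in wild-type (x axis) against libraries labelled AMPKα1-/- (y axis), in log2(FPKM + 1), for the 11249 genes tested, with 3 gene lists coloured and equal change as a dashed line. Interferon-stimulated genes lie in the upper right and proliferation genes and NRF2 targets mostly in the lower left. The correlation over all genes is 0.782.

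DAMPs were finally compared directly with LPS, a ligand of Toll-like receptor 4, over the 6 DAMPs and 5 LPS libraries in a fit with the 6 vehicle libraries. Of 11362 genes, 8054 differed (70.9%), 5075 of them higher (44.7%) and 2979 lower (26.2%) with DAMPs. The share that was higher, 63%, became 50.6% when libraries were centred on a single median, and the median of all genes moved from 0.191 to 0.009 (log2). LPS against vehicle called 8289 genes (73%). Both treatments share the vehicle libraries, so their changes are given side by side.

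Interferon-stimulated genes lay between vehicle and LPS. Their median change was 1.70 with DAMPs and 3.80 with LPS (log2), and 35 of 38 were called lower with DAMPs than with LPS and none higher, beside 26.2% lower and 44.7% higher over all genes. Isg15 was between 22.9 and 213 FPKM with DAMPs and between 1268 and 2594 FPKM with LPS, a difference of -4.86 (limma, adjusted p = 1.2e-08). The gap was smaller in others: Ifit3 differed by -1.47 (adjusted p = 0.00358) and Irf7 by -1.44 (adjusted p = 0.00178, limma). Ly6a was between 23.0 and 228 FPKM with DAMPs and between 40.8 and 139 FPKM with LPS, and the difference of 0.49 was not called (limma, adjusted p = 0.427). Rtp4 also was not called (-0.62, adjusted p = 0.12, limma). The median change of the cytokine genes was 0.33 with DAMPs and 5.11 with LPS, and 19 of 25 were called lower and 4 higher with DAMPs than with LPS, beside the same shares over all genes. The 4 were Il10, Ccl6, Ccl8 and Ccl24, named after their values were seen. Il1b was between 2.04 and 34.6 FPKM with DAMPs and between 11233 and 16653 FPKM with LPS. Tnf was between 6.71 and 10.3 FPKM with DAMPs and between 247 and 780 FPKM with LPS. Il6, below 0.3 FPKM with vehicle or DAMPs, was between 269 and 647 FPKM with LPS. Marco was between 127 and 244 FPKM with DAMPs and between 1266 and 2910 FPKM with LPS.

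In other genes the treatments lay on different sides of vehicle. Tlr9 changed by 0.84 with DAMPs and by -2.16 with LPS, P2rx4 by 0.41 and -0.82, and Cd4 by 0.84 and -2.88 (log2). Each differed between DAMPs and LPS (adjusted p = 4.8e-11, 5.8e-11 and 4.0e-13, limma). Psat1 fell with DAMPs (-1.43), whereas with LPS its difference from vehicle was 0.21 ± 0.16 (adjusted p = 0.258). Psat1 was between 3.87 and 7.06 FPKM with DAMPs and between 11.2 and 21.3 FPKM with LPS, a difference of -1.64 (limma, adjusted p = 7.5e-08). Txnrd1 and Dusp6 differed from vehicle by -0.12 and -0.05 with LPS, neither of them called, and DAMPs minus LPS was -1.02 and -0.73 (log2, adjusted p = 3.7e-04 and 2.4e-05, limma). Over the 22 NRF2 targets the median change was -0.49 with DAMPs and -1.10 with LPS, and 10 were called higher and 5 lower with DAMPs than with LPS, shares near the 44.7% and 26.2% over all genes. Of these targets, Srxn1 (-1.22 with DAMPs, -1.59 with LPS) and Hmox1 (-1.04 and -1.07) were not called between the treatments. Mrc1 fell to between 54.4 and 133 FPKM with DAMPs and was at or below 0.96 FPKM with LPS.

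**Figure D4:**
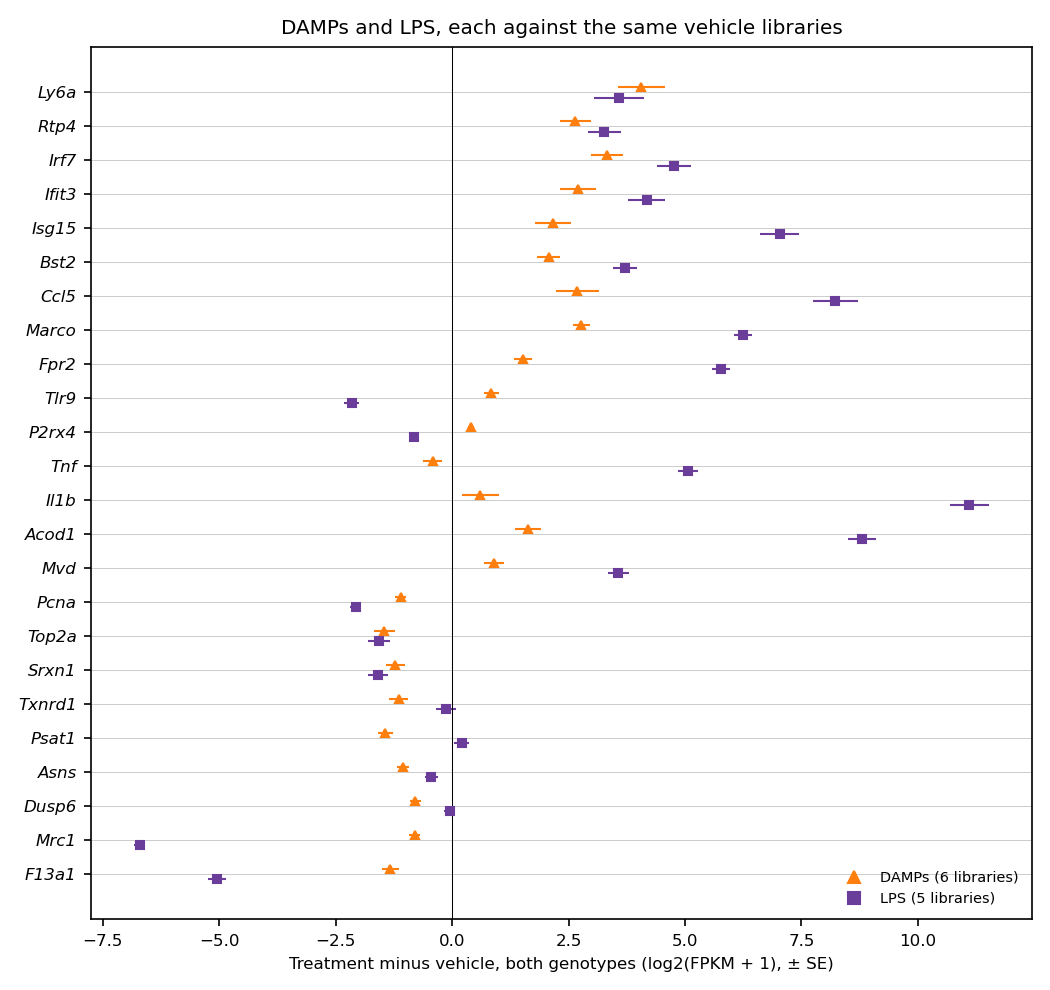
Change against vehicle of 24 genes with DAMPs (triangles, 6 libraries) and with LPS (squares, 5 libraries), both genotypes, in log2(FPKM + 1) with standard errors and the same 6 vehicle libraries. Tnf and Il1b lie near 0 with DAMPs and at 5.07 and 11.11 with LPS, Tlr9 and P2rx4 lie on opposite sides of 0, and Psat1, Txnrd1 and Dusp6 lie below 0 with DAMPs and near 0 with LPS.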

How the data were processed

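FPKM were deposited by the authors, 1 file of 47069 genes per library. The submitters' processing notes name TopHat2 2.0.12, Bowtie2 2.2.3, HTSeq 0.6.1, DESeq2 and build GRCm38, and 46574 genes had a symbol in GENCODE M21. One wild-type LPS replicate was not analysed here. Depth was read from the steps that single fragments make in low FPKM values, of which 56.0% to 62.7% under 10 fragments came out whole within 0.001 in the 12 libraries. Fragments were not recovered for enough genes for a count test.

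Genes with a mean of at least 1 FPKM were tested with limma 3.58.1 (R 4.3.3, trended empirical Bayes, 2-sided, Benjamini-Hochberg at 0.05) on log2(FPKM + 1), where changes of weakly expressed genes come out too small. The main fit used genotype and treatment. Each genotype and the interaction came from 4 group means, and DAMPs against LPS from 17 libraries. The fit was tested on simulated data. Tables used Python 3.11.15 with pandas 2.3.3, and figures matplotlib 3.10.9.

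Named genes are the 10 largest rises and falls among called genes without overlap in both genotypes, the 5 smallest interaction p, up to 3 per list by p, and Prkaa1, Tnf, Il1b, Il6, Hif1a, Tsc22d3, Dusp1, Sdhd and Suclg1. Others were named after their values were seen. The libraries, the 32 lists and the tests were chosen with earlier results of these data known. Motifs were chosen after the data were seen. Some genes that the rule names are not reported here.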

Additional observations from a re-analysis of the deposited data

Results flagged for a closer look

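The genotypes differed at an unadjusted p under 0.05 (limma interaction) in the 5 genes with the smallest p, and none passed adjustment. The changes with DAMPs, labelled AMPKα1-/- minus wild-type, were -0.69 for Mmel1, -0.58 for Xrcc6 (the Ku70 subunit of DNA repair), -2.04 for the hairpin gene Mir140, 0.90 for Hist1h2al, a processed pseudogene in the annotation, and 2.25 for the predicted gene Gm23851 (log2). Mir140 lay between 0.792 and 7.50 FPKM in the 12 libraries. Gm23851, a short snRNA gene, lay between 0 and 5.35 FPKM, with labelled AMPKα1-/- vehicle replicates 2 and 3 at 0. The FPKM of these short genes is uncertain. Mmel1 was between 1.12 and 3.46 FPKM in wild-type and did not pass 0.0780 FPKM in the libraries labelled AMPKα1-/-. It passed the filter on low values through wild-type alone, so its value restates the difference in level and is no test of the response. Xrcc6 was between 15.5 and 19.1 FPKM with vehicle and between 10.9 and 14.1 FPKM with DAMPs in libraries labelled AMPKα1-/-, while the wild-type DAMPs libraries lay between 15.8 and 17.7 FPKM. In Stx2, a membrane fusion protein, every wild-type DAMPs library lay above every wild-type vehicle library and every labelled AMPKα1-/- DAMPs library below its vehicle libraries, the 1 gene of 11249 (0.00889%) with that pattern. Its difference was -0.22 (log2, unadjusted p = 0.0783, limma).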

How the results depend on the processing

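The count of 988 genes for DAMPs against vehicle stayed between 674 and 1417 under the other settings chosen at the start, and between 685 and 1087 when 1 library was left out. The added setting, chosen after seeing the data, that left out wild-type DAMPs replicate 1 and labelled AMPKα1-/- vehicle replicate 3 gave 592. The counts within a genotype were far less stable. For wild-type (17) they were 5 without a filter on low values, 8 with centring, 29 with quantile normalization, 7 without moderation, 641 with array weights, 245 with all 35 libraries fitted, 1 with the 6 wild-type libraries alone, and 7 in the added setting. For libraries labelled AMPKα1-/- (200) they were 16 without a filter, 12 without moderation, 1193 with array weights, 512 with all 35 libraries, 339 with the 6 libraries alone, and 3 in the added setting. Leaving out 1 library gave 1 to 156 and 10 to 374 genes. The interaction had 3 calls without a filter and 0 under the other alternatives. The correlation of the genotypes was 0.713 with a pseudocount of 0.1, 0.691 without a filter, 0.833 at a mean of at least 5 FPKM, 0.503 with array weights, and 0.606 to 0.777 with 1 library left out. The cause of these shifts was not tested. DAMPs against LPS gave 6261 to 9791 genes. No named gene changed sign, and 15 of 77 called ones lost the call under at least 1 alternative.

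Same-numbered vehicle and DAMPs libraries deviated together unevenly (correlations of 0.341, 0.478 and -0.143 in wild-type, 0.448, 0.214 and 0.0229 in libraries labelled AMPKα1-/-), so the numbers were not taken as pairs. With a replicate block by genotype and number the counts were 1158 over both genotypes, 47 in wild-type and 370 in libraries labelled AMPKα1-/-, and with a block of the number alone 937 over both.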

Other observations

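H2-Ea-ps and Msh5, in the major histocompatibility region, were low in many, but not all, libraries of the same number across the series. Msh5, a meiotic mismatch repair gene, was between 0.378 and 0.746 FPKM in the wild-type replicate 1 libraries of Dex, LPS + Dex, DAMPs and DAMPs + Dex, and at 24.2 FPKM in wild-type vehicle replicate 1. In the replicate 3 libraries labelled AMPKα1-/- it was at 0.772 FPKM with vehicle, 0.409 with LPS, 0.373 with LPS + Dex and 0.516 with DAMPs + Dex, and at 14.4 FPKM with DAMPs and 5.74 with Dex. The remaining LPS libraries were low as well, between 1.21 and 1.93 FPKM. Wild-type vehicle replicate 1 and labelled AMPKα1-/- DAMPs replicate 3 thus differed from most libraries of their number. H2-Q1, of the same region, was low in a further pair, at 0.0783 FPKM in wild-type vehicle replicate 2 (67.3 to 146 FPKM in the other wild-type replicate 2 libraries) and at 0.216 FPKM in labelled AMPKα1-/- vehicle replicate 2 (12.5 to 105 FPKM in the others of that number and label). The cause was not tested. Without wild-type vehicle replicate 1, 788 genes were called for DAMPs against vehicle, and without labelled AMPKα1-/- DAMPs replicate 3, 711.

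C3 of complement and the acute phase gene Saa3, both named after their values were seen, were called higher with DAMPs. C3 was between 74.2 and 196 FPKM with vehicle and between 491 and 1008 FPKM with DAMPs, which overlaps its 710 to 1011 FPKM with LPS. Saa3 was between 54.0 and 241 FPKM with vehicle, between 200.2 and 931 FPKM with DAMPs, and between 28580 and 59262 FPKM with LPS.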
